A study of Mus musculus with 8 samples.

Results

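The regions described here lie in the first megabases of assembled mouse chromosomes or on sequences outside the assembled chromosomes. They form 2 classes, chosen by position alone from the tables of H3K9me2 and H3K9me3 regions deposited for HAT1+/+ and HAT1-/- fibroblasts. A region was centromere-proximal if it started below 8 Mb on an autosome, leaving out chromosomes 13, 15 and 19 and the part of chromosome 9 below 3.04 Mb. A scaffold region lay on a sequence of the assembly that is not one of the chromosomes 1 to 19, X, Y or the mitochondrial genome. The H3K9me2 table held 101 centromere-proximal and 48 scaffold regions of 1983, and the H3K9me3 table held 479 and 114 of 14515. In all, 742 of 16498 regions were members.

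Both marks, histone H3 with 2 (H3K9me2) or 3 (H3K9me3) methyl groups on lysine 9, were mapped by ChIP-seq, the sequencing of DNA bound to immunoprecipitated chromatin, in mouse embryonic fibroblasts (MEFs) of the C57bl6 strain, immortalized with a plasmid that carries the SV40 T antigen. HAT1+/+ (wild type, WT) cells carry the gene of the histone acetyltransferase HAT1, and HAT1-/- (knockout, KO) cells lack it. Each genotype had cells from 2 embryos, each mark was profiled in 2 WT and 2 KO libraries, and human Dbt immortalized myoblasts were added to every sample as a spike-in. The groups are thus few immortalized cell populations rather than tissue. No region of either table overlaps the Hat1 gene, so the genotype labels could not be checked in these data. The authors' total for a library, by which a count was divided to give RPM (reads scaled to a common library size), lay between 5422405 and 8421762 for H3K9me2 and between 4198682 and 5810913 for H3K9me3. All regions together took 4.89% to 9.53% of the H3K9me2 totals and 12.01% to 20.4% of the H3K9me3 totals, and in both marks the KO libraries held the higher shares.

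Mouse chromosomes are telocentric, so their assembled sequence begins next to the centromere. Mouse centromeres are flanked by long arrays of the major satellite, an AT-rich tandem repeat packed into constitutive heterochromatin that carries H3K9me3, placed by the SUV39H enzymes and bound by HP1. H3K9me2 is placed largely by G9a and GLP and is spread more widely over silent chromatin. Scaffolds are stretches of sequence that could not be ordered on a chromosome, often because they are repeated.

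A set of 3 sequences comes from single regions that recur in the results, each shown on the plus strand of the reference genome of build GRCm38 (mm10). In the first pair the capitals mark bases that lie in a run of 24 bases shared with the satellite regions at the start of chromosome 9, which are not members. The first is from the centromere-proximal region with the most reads, and the second from the scaffold that held most scaffold reads.

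chr12:3109872-3110105: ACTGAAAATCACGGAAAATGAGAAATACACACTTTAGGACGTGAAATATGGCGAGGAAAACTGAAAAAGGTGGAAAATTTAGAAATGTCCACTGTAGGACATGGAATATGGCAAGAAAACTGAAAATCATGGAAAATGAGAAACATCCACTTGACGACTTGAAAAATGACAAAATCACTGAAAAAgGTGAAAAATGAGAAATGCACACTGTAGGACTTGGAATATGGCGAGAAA

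JH584304.1:79134-79367: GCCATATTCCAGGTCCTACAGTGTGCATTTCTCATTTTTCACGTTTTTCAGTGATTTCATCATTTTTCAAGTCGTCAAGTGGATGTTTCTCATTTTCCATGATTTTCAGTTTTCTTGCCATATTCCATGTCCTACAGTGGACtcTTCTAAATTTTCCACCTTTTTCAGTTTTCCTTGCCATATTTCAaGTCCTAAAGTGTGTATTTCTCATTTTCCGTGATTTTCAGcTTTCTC

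The first window is part of the H3K9me2 region chr12:3109747-3110217, in which 52.9% of bases lie in such shared runs. The second is part of JH584304.1:79094-79569, in which the share is 88.4%. The scaffold sequence matched itself at a step of 234 bp, the same step as in the strongest satellite region of the H3K9me2 table, on chromosome 2.

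The third sequence is of another kind. It comes from the chromosome 17 region with the most reads among those called lower in KO, which was called for both marks. Its capitals mark copies of TTCCA, of which 36 lie whole in the window and 1 runs past its end.

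chr17:4626171-4626404: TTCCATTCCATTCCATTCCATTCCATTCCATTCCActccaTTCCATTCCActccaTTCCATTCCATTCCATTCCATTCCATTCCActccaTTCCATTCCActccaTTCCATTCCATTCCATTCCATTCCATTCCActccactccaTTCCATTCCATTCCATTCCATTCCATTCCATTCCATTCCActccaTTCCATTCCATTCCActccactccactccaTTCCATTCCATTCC

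The 10-base motif TTCCATTCCA, searched on both strands with overlapping matches merged, covered 52.9% of the H3K9me2 region chr17:4626081-4626694 and 49.5% of the H3K9me3 region chr17:4626067-4626723. It was searched after this sequence had been seen. Any match was present in 1.31% of H3K9me2 and 0.427% of H3K9me3 regions with a sequence.

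Centromere-proximal regions were crowded at the very edge of the assembled sequence, and more so for H3K9me2. Of the 101 H3K9me2 regions, 47 (46.5%) began within 200 kb of the first sequenced base of a chromosome, on 10 chromosomes, and they held 83.8% of the class's reads. Of the 479 H3K9me3 regions, 86 (17.95%) did so, on 14 chromosomes, with 64.1% of the reads. In the windows below 8 Mb there were 1.27 H3K9me2 regions per Mb, against 0.676 beyond 8 Mb on the same chromosomes. For H3K9me3 the densities were 6.02 and 5.43 per Mb, so the excess near the centromere was smaller. These densities are over regions called by the authors and carry no replicate error.

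**Figure D1:**
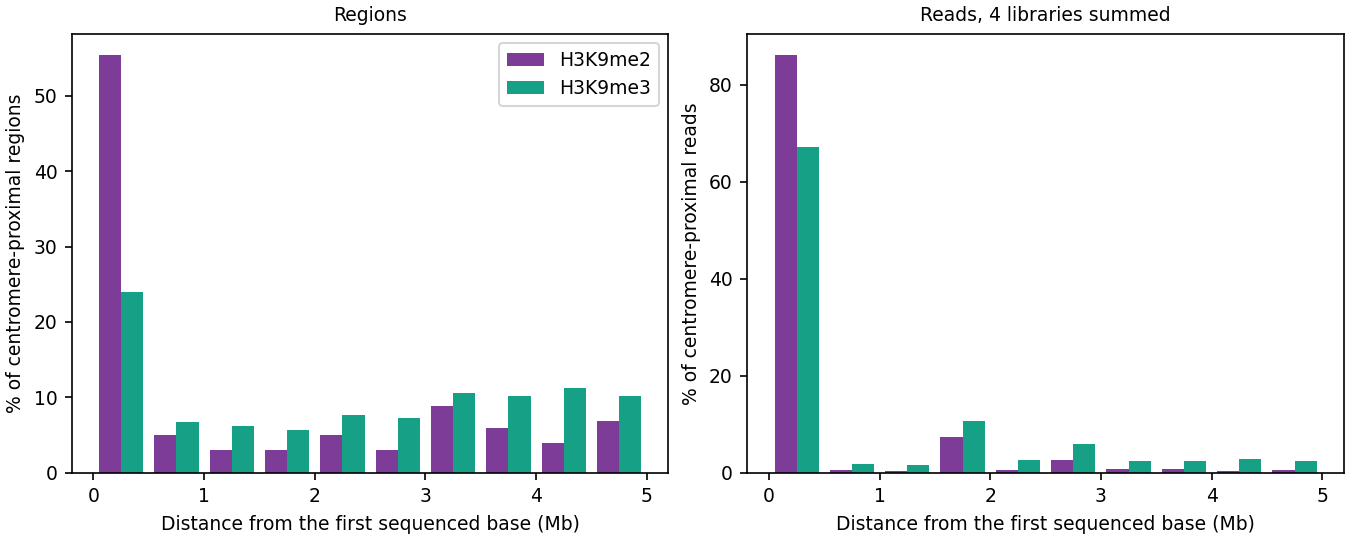
Centromere-proximal regions (left) and their reads summed over 4 libraries (right), as % of the class, in bins of 0.5 Mb by distance from the first sequenced base (Mb), for H3K9me2 and H3K9me3. The first bin holds 55.4% of H3K9me2 and 24.01% of H3K9me3 regions, and 86.2% and 67.2% of their reads.

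Chromosomes differed in how their starts were marked. Chromosome 1 had 0 H3K9me2 regions in the class and 59 H3K9me3 regions, 22 of them between 7 and 8 Mb. Chromosome 11 had 19 H3K9me2 regions, 18 of them between 3 and 4 Mb, and 27 H3K9me3 regions, 19 of them in that bin. Chromosome 16 had 13 H3K9me2 regions, all 13 between 3 and 4 Mb, and 27 H3K9me3 regions, 24 in that bin.

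The same lean toward the first bin was seen on chromosomes 4, 6 and 18, with 7 of 7, 4 of 5 and 5 of 5 H3K9me2 regions between 3 and 4 Mb, and 14 of 29, 10 of 16 and 12 of 20 H3K9me3 regions. On chromosomes 5, 7, 8 and 9 the bin with the most H3K9me3 regions lay further in, at 7, 7, 5 and 4 Mb, with 20 of 46, 18 of 31, 21 of 46 and 16 of 34 regions. Chromosomes 10, 12 and 14 had 23, 36 and 20 H3K9me3 regions with their fullest bin at 6 Mb, holding 11, 16 and 7, and 5 H3K9me2 regions each. The smallest number of H3K9me3 regions was on chromosome 2, with 8 and no more than 2 in a bin, followed by chromosomes 6 and 17 with 16 each, and on chromosome 17 no bin held more than 5. Chromosome 3 had 41 H3K9me3 regions, 14 between 3 and 4 Mb, and 8 H3K9me2 regions, 4 of them between 6 and 7 Mb.

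The limit of 8 Mb was set by position. In the last Mb inside it there were 11 H3K9me2 and 103 H3K9me3 regions, and in the first Mb outside 21 and 81. The last H3K9me2 region inside it, at chr11:7882092-7882402, had 82 reads and the first outside, at chr3:8000287-8000528, had 57. For H3K9me3 the regions on either side, chr1:7982908-7983147 and chr1:8007425-8007662, had 56 and 62 reads.

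Centromere-proximal reads were concentrated in few regions, more so for H3K9me2. The H3K9me2 region chr12:3109747-3110217, 471 bp wide and 22.7 kb from the nearest gene, Gm9075, held 40.5% of the class's reads, and the H3K9me3 region at the same place, chr12:3109742-3110220, held 27.0%. A block of 18 regions of each mark at the start of chromosome 11 held 27.4% of the H3K9me2 and 19.6% of the H3K9me3 reads. It lies over Sfi1, which encodes a centriole-associated protein, and over Drg1, which encodes a GTP-binding protein. The remaining 82 H3K9me2 regions held 32.1% of the reads and had a median of 102.5 reads each, and the remaining 460 H3K9me3 regions held 53.4% with a median of 68 reads.

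Scaffold reads were concentrated further, on 1 of the 16 scaffolds with a region. JH584304.1, a scaffold of 114452 bp that RefSeq assigns to no chromosome, held 29 of 48 H3K9me2 regions with 93.5% of the class's reads, and 33 of 114 H3K9me3 regions with 84.1%. Of the other scaffolds, RefSeq assigns GL456210.1, GL456211.1, GL456212.1 and GL456221.1 to chromosome 1, and these had 12 H3K9me2 and 46 H3K9me3 regions with 3.01% and 8.95% of scaffold reads. So the class mixes unplaced sequence with unordered pieces of known chromosomes, and it is described here by scaffold.

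The other scaffolds had 19 H3K9me2 and 81 H3K9me3 regions, in tables of 1983 and 14515. GL456239.1 had 1323 H3K9me2 reads in 1 region and 3494 H3K9me3 reads in 4 regions. JH584299.1, assigned to chromosome 5, had 1 H3K9me2 region with 53 reads and 10 H3K9me3 regions with 663 reads. GL456233.1, assigned to the X chromosome, had 0 H3K9me2 regions and 7 H3K9me3 regions with 402 reads.

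The rest had no more than 2 H3K9me2 regions each. GL456216.1 and JH584292.1, assigned to chromosome 4, had 455 and 663 H3K9me2 reads and 1374 and 1096 H3K9me3 reads, and GL456372.1 had 179 and 422. JH584295.1 of chromosome 4, JH584296.1 and JH584297.1 of chromosome 5, GL456381.1 and GL456385.1 had H3K9me3 regions alone, with 334, 102, 60, 355 and 56 reads.

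Members shared sequence with each other and with other places, which limits what a count at 1 place means. Over the regions with a sequence, the median H3K9me2 scaffold region had 20.3% of its runs of 24 bases found once in the chromosomes and scaffolds searched, against 47.9% for centromere-proximal and 58.7% for the other regions. For H3K9me3 these medians were 12.3%, 45.4% and 53.9%. Regions of JH584304.1 were also more often tandem repeats, matching themselves at 60% identity or more after a shift. For H3K9me2 the shares were 33.3% of scaffold, 19.8% of centromere-proximal and 8.07% of other regions. For H3K9me3 they were 18.3%, 10.6% and 3.94%. JH584304.1 alone had 41.4% (H3K9me2) and 42.4% (H3K9me3), and the remaining scaffolds had 18.75% and 7.04%. How reads with more than 1 possible place were treated is not given in the sources used here, so levels at regions with a close copy are uncertain.

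The sharing tied particular places together. The 18 H3K9me2 regions of the chromosome 11 block had a median of 39.7% of their 24-base runs also on JH584304.1, and the 18 H3K9me3 regions had 75.9%. Regions of the chromosome 1 scaffolds had medians of 70.4% to 82.4% (H3K9me3) of their runs on each of GL456210.1, GL456211.1, GL456212.1 and GL456221.1, these scaffolds' own runs included. The chr12 region with the most reads had 42.9% of its runs on JH584304.1.

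The marks coincided at members more often than elsewhere. Of H3K9me2 regions, 62.4% of centromere-proximal (63 of 101) and 95.8% of scaffold regions (46 of 48) overlapped a H3K9me3 region by at least 1 bp, against 37.5% of the other regions. Of H3K9me3 regions, 12.9% (62 of 479), 37.7% (43 of 114) and 4.91% overlapped a H3K9me2 region. H3K9me2 members were wider than other regions, with median widths of 329 (centromere-proximal), 387 (scaffold) and 279 bp (other), and the shares were not compared by a test.

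Each class took a larger share of the KO libraries than of the WT libraries for both marks. Centromere-proximal H3K9me2 regions took 0.432% and 0.405% of the KO totals and 0.236% and 0.303% of the WT totals, with Wilson 95% intervals no wider than 0.426% to 0.437%. Both KO values lay above both WT values, with means of 0.418% ± 0.0189 (SD, n = 2) and 0.269% ± 0.0475 (SD, n = 2), a ratio of 1.55. Centromere-proximal H3K9me3 regions took 0.880% and 0.864% in KO and 0.594% and 0.609% in WT, a ratio of 1.45 between means of 0.872% ± 0.0115 and 0.602% ± 0.0103 (SD, n = 2 each).

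The scaffold ratios were larger. Scaffold H3K9me2 regions took 0.414% and 0.395% of the KO totals and 0.192% and 0.237% of the WT totals, a ratio of 1.88 between means of 0.404% ± 0.0139 and 0.215% ± 0.0318 (SD, n = 2 each). Scaffold H3K9me3 regions took 0.840% and 0.823% in KO and 0.399% and 0.419% in WT, a ratio of 2.03 between means of 0.831% ± 0.0117 and 0.409% ± 0.0142 (SD, n = 2 each). In all 4 cases the genotypes did not overlap, which in an exact two-sided permutation test of 2 libraries against 2 gives p = 0.333, the smallest p this design allows. Over all regions of a table the same ratio was 1.58 for H3K9me2 and 1.57 for H3K9me3, so the gain of the centromere-proximal class was near or below that of the whole table. The intervals cover counting error alone, since reads from PCR are not independent molecules.

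**Figure D2:**
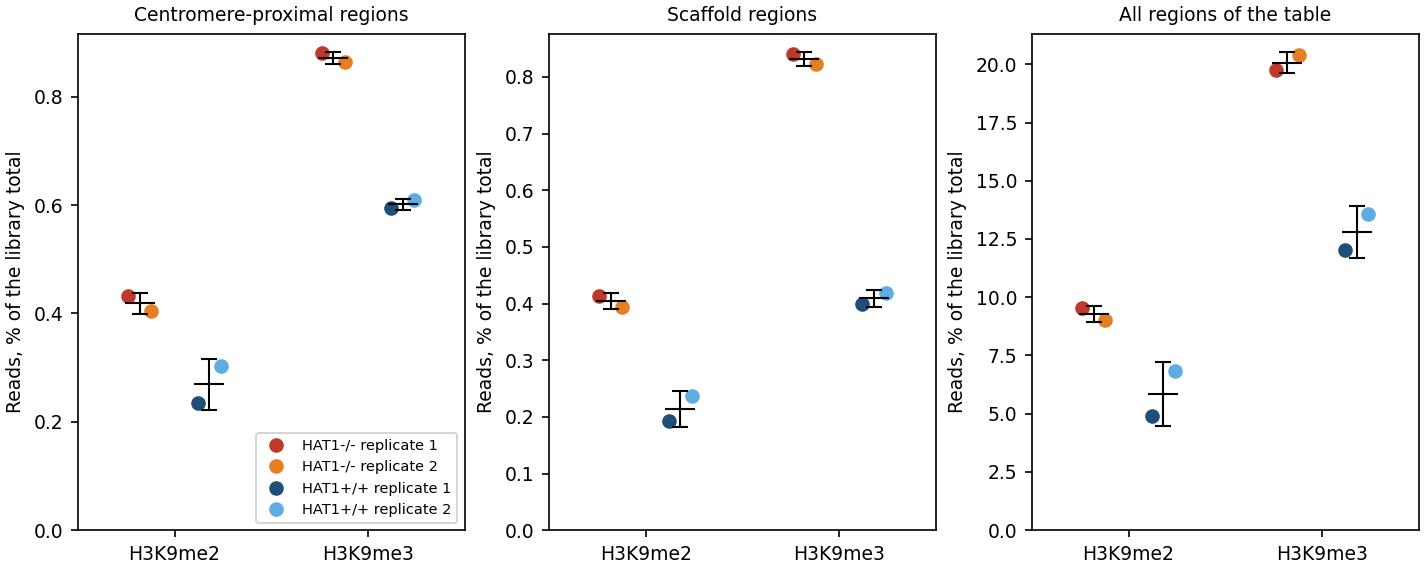
Reads counted in centromere-proximal and scaffold regions as % of the library total, for each mark; points are libraries, and bars give the mean and SD of 2 libraries. The KO points lie above the WT points in each of the 4 comparisons, from 0.864% to 0.880% against 0.594% to 0.609% for centromere-proximal H3K9me3.

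Read instead as a share of all reads in regions, the centromere-proximal class did not gain. It held 4.53% and 4.49% of H3K9me2 region reads in KO and 4.81% and 4.43% in WT, so the KO values lay between the WT values. For H3K9me3 it held 4.46% and 4.24% in KO and 4.95% and 4.48% in WT, with both KO values below both WT values (exact permutation p = 0.333). The scaffold class stayed higher in KO, at 4.35% and 4.37% against 3.93% and 3.47% for H3K9me2, and at 4.25% and 4.04% against 3.32% and 3.08% for H3K9me3 (exact permutation p = 0.333 each).

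Single regions were tested with edgeR's quasi-likelihood test on all regions of a table, with TMM factors, which set the bulk of regions near no difference. By that test 6 member regions passed a false discovery rate (FDR) of 0.05. For H3K9me2, 0 centromere-proximal regions were higher and 2 lower in KO, and 1 scaffold region was higher and 0 lower, against 0.202% of the table higher and 1.71% lower. For H3K9me3, 0 centromere-proximal regions were higher and 3 lower, and 0 scaffold regions were higher or lower, against 0.0276% higher and 0.971% lower in the table. With either KO library left out, edgeR called 0 of these 6 regions.

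More regions passed an unadjusted p of 0.05 in the same edgeR test. For H3K9me2 these were 1 higher and 7 lower among centromere-proximal regions and 5 higher and 1 lower among scaffold regions, where 2.12% and 7.21% of the table passed. For H3K9me3 they were 2 higher and 60 lower, and 4 higher and 6 lower, where 0.985% and 8.16% passed. The 60 lower centromere-proximal H3K9me3 regions of 479, the 5 higher scaffold H3K9me2 regions of 48 and the 4 higher scaffold H3K9me3 regions of 114 are larger shares than in the table, and all 5 of the H3K9me2 regions lie on JH584304.1.

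DESeq2, which gave an adjusted p for 34 centromere-proximal and 33 scaffold regions of H3K9me2 and for 88 and 82 of H3K9me3, called few members too. At an adjusted p under 0.05 it called 0 higher and 1 lower centromere-proximal H3K9me2 region and 0 scaffold regions in either direction, against 0% higher and 8.7% lower of all regions with an adjusted p. For H3K9me3 it called 0 higher and 2 lower centromere-proximal regions and 1 higher and 0 lower scaffold regions, against 0.0992% and 8.13%.

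The direction of the centromere-proximal calls turned with the scaling, and the scaffold calls rose in number, all higher in KO. With library totals alone and no TMM factor, edgeR called 10 centromere-proximal and 27 scaffold H3K9me2 regions higher in KO and 0 lower, where 5.5% of the table was called higher and 0.252% lower. It called 7 and 14 H3K9me3 regions higher and 0 lower, where 0.785% and 0.103% of the table were called. The scaling changed the median log2 fold change of all H3K9me2 regions from 0.12 to 0.79 and that of all H3K9me3 regions from 0.05 to 1.06. Which scaling shows the change in methylation could not be settled, since the sources used here do not state how the spike-in entered the totals.

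Relative to the other regions of a table, the median H3K9me3 member lay a little lower in KO in both classes. The median TMM-scaled log2 fold change was -0.18 for centromere-proximal and -0.21 for scaffold H3K9me3 regions, against 0.06 for other regions, and with library totals alone it was 0.84, 0.80 and 1.07. Within the scaffold class the median was 0.05 for JH584304.1, which held most of the reads, and -0.33 for the 81 regions of the other scaffolds. For H3K9me2 the medians were 0.10, 0.20 and 0.12, or 0.77, 0.88 and 0.79 with library totals. Per library, the class median minus the median of other regions, on the log2 scale with a pseudocount of 1, was 0.14 and 0.12 in KO and 0.30 and 0.30 in WT for centromere-proximal H3K9me3, a difference of -0.17. For scaffold H3K9me3 it was 1.93 and 1.74 in KO and 2.22 and 2.20 in WT, a difference of -0.38. The genotypes did not overlap in either, and the exact permutation p was 0.333 for both. For H3K9me2 the differences were -0.10 (p = 1) and 0.17 (p = 0.667, exact permutation), and the libraries of the genotypes overlapped.

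In RPM of the library total, both KO libraries lay above both WT libraries in 66 of 101 centromere-proximal and 40 of 48 scaffold H3K9me2 regions, against 45.5% of the table. They lay below both in 2 and 1, against 3.98%. For H3K9me3 they lay above in 259 of 479 and 88 of 114 regions, against 57.6%, and below in 20 and 0, against 2.65%.

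The clearest single loss relative to other regions was at the TTCCA repeat on chromosome 17, 8.28 kb from the nearest gene, 4930517M08Rik. The H3K9me3 region chr17:4626067-4626723 had 1991 and 2788 reads in KO against 4005 and 4742 in WT. Both KO counts were below both WT counts, although the KO libraries had higher shares in regions overall. With TMM factors the log2 fold change was -1.51 ± 0.30 (SE, FDR = 0.000396, edgeR), and with library totals alone it was -0.50 (FDR = 0.276). Without 1 KO library it was -1.40 or -1.64, and without 1 WT library it was -1.60 or -1.43, all with TMM factors.

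The H3K9me2 region at the same place, chr17:4626081-4626694, had 1242 and 1226 reads in KO against 1772 and 1623 in WT, again with no overlap. Its log2 fold change was -0.69 ± 0.21 (SE, FDR = 0.0482, edgeR with TMM), but -0.03 with library totals, and the FDR was 0.0581 without WT replicate 1 and 0.0583 with the replicate number as a block. In RPM of the library totals its KO values, 225 and 226, lay between the WT values of 210 and 250, so the loss is relative to other regions and not to the total.

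Other regions rich in the same motif were rare. Among H3K9me2 regions, 4 had at least 20% of their bases covered by TTCCATTCCA, 1 of them a member, and among H3K9me3 regions 1 did, the chromosome 17 member. The member is the region whose sequence prompted the search. The 4 H3K9me2 regions had TMM-scaled log2 fold changes from -1.34 to -0.64, and 2 of them, the member included, passed the FDR, where 1.71% of the table was called lower. With library totals alone these fold changes ran from -0.64 to 0.00. TTCCA is also known as the unit of human satellites II and III, and human cells were added to every sample. Whether human reads contribute to these counts was not tested.

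The other centromere-proximal calls rested on 1 library. The H3K9me2 region chr7:7521068-7521609, 12.97 kb from the gene model Gm6842, had 8 and 10 reads in KO against 16 and 79 in WT. Its log2 fold change was -2.64 ± 0.69 (SE, FDR = 0.0120, edgeR), and -1.12 (FDR = 0.989) without the WT replicate 2 library. The H3K9me3 region at this place, chr7:7520861-7521571, had 28 and 30 reads in KO against 22 and 142 in WT. There the log2 fold change was -2.09 ± 0.51 (SE, FDR = 0.00785, edgeR), and -0.27 (FDR = 1.000) without that library.

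Another such region, H3K9me3 chr17:6534495-6534767, lies 1.12 kb from Gm29721. It had 4 and 4 reads in KO against 8 and 40 in WT, a log2 fold change of -3.14 ± 0.85 (SE, FDR = 0.0276, edgeR) and of -1.63 (FDR = 1.000) without WT replicate 2. The high value was in the WT replicate 2 library each time. The WT replicate 1 count was above both KO counts at chr7:7521068-7521609 and here, and below both at chr7:7520861-7521571.

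The scaffold region that rose lies in Pisd-ps3, a transcribed pseudogene of phosphatidylserine decarboxylase, listed as AC149090.1 in GENCODE. H3K9me2 at JH584304.1:58552-59241 had 874 and 863 reads in KO against 523 and 355 in WT. Both KO values were higher in counts and after TMM scaling, although the WT totals were larger. The log2 fold change was 0.76 ± 0.22 (SE, FDR = 0.0340, edgeR), and 1.44 with library totals. Without WT replicate 2 it was 0.43 (FDR = 0.715), and DESeq2 gave an adjusted p of 0.0622.

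The H3K9me3 region over the same exon, JH584304.1:58530-59249, had 994 and 906 reads in KO against 342 and 273 in WT. Its log2 fold change was 1.00 ± 0.34 (SE), which did not pass in edgeR (FDR = 0.157) but did in DESeq2 (adjusted p = 0.0428). With library totals it was 2.02.

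**Figure D3:**
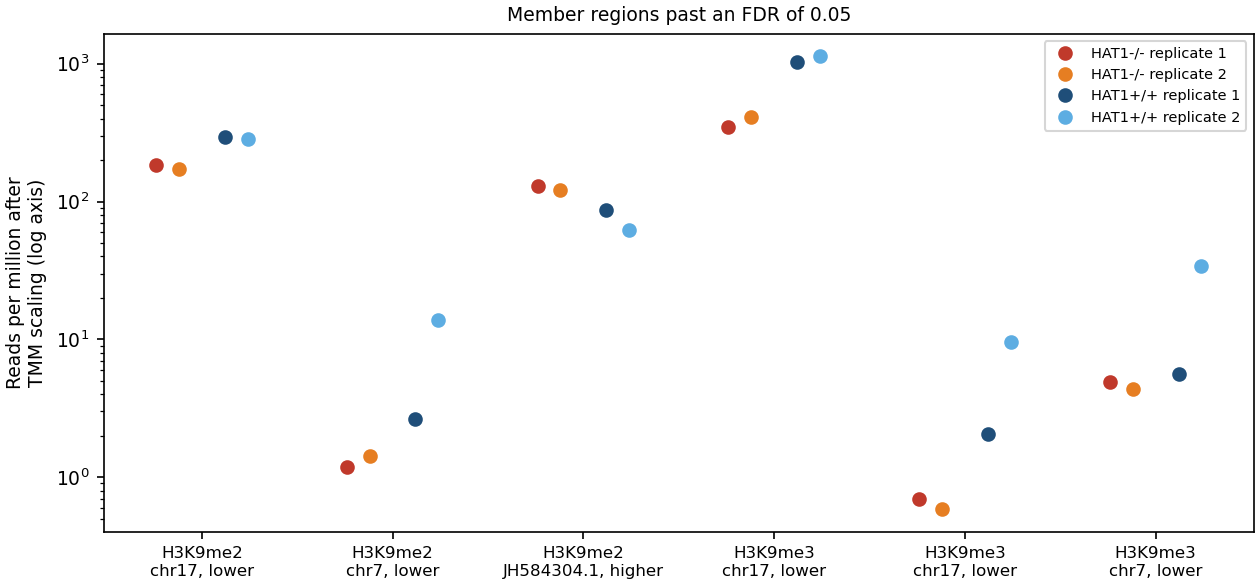
RPM after TMM scaling (log axis) of the 4 libraries at each of the 6 member regions past an FDR of 0.05 in edgeR. At the chromosome 7 regions and at the second H3K9me3 region of chromosome 17 the WT replicate 2 point, at 13.8, 33.8 and 9.53, stands apart, while at the H3K9me3 TTCCA repeat both WT points, 1025 and 1130, lie above the KO points, 347 and 409.

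The strongest centromere-proximal region, on chromosome 12, was not called in either mark. For H3K9me2 it had 9865 and 8903 reads in KO against 7363 and 8454 in WT, a log2 fold change of 0.01 ± 0.24 (SE, FDR = 0.984, edgeR). For H3K9me3 it had 9933 and 10831 in KO against 8299 and 10310 in WT, a log2 fold change of -0.47 ± 0.29 (SE, FDR = 0.694, edgeR). With library totals these were 0.66 and 0.54, neither past the FDR.

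Among regions with the smallest p that did not pass, some differed by many-fold on few reads. The H3K9me3 region chr8:6142143-6142480 had 21 and 22 reads in KO against 2 and 1 in WT, a log2 fold change of 3.13 ± 1.33 (SE, FDR = 0.362, edgeR). The H3K9me2 region chr16:3116211-3116508 had 125 and 74 in KO against 57 and 37 in WT (0.86 ± 0.39, SE, FDR = 0.377). The H3K9me2 region chr17:6532173-6532527 had 14 and 11 in KO against 16 and 68 in WT, and JH584299.1:818960-819282 had 6 and 2 in KO against 28 and 17 in WT (-2.67 ± 1.10, SE, FDR = 0.262).

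JH584304.1 was higher in KO over its whole length in RPM of the library total. Both KO libraries lay above both WT libraries in 29 of 29 H3K9me2 and 33 of 33 H3K9me3 regions, against 45.5% and 57.6% of the tables. The scaffold took 0.389% and 0.369% of the KO totals and 0.178% and 0.222% of the WT totals for H3K9me2, a ratio of 1.90, and 0.723% and 0.703% against 0.318% and 0.349% for H3K9me3, a ratio of 2.14. Without it, the ratios of the other scaffolds were 1.69 and 1.57, nearer to those of the whole tables.

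The scaffold has 2 parts of different sequence. From 68.3 to 113.5 kb lay 13 H3K9me2 and 14 H3K9me3 regions with at least 10% of their 24-base runs shared with the chromosome 9 satellite regions (median 48.2% and 48.3%). From 0.22 to 66.6 kb lay 16 and 19 regions that reached no such share. These had medians of 51.4% and 58.2% of their runs in the first 8 Mb of chromosome 11. Their median GC content was 52.8% and 52.5%, against 36.2% and 36.3% in the satellite regions.

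The libraries of a genotype split differently in these parts. In the satellite part WT replicate 2 was above WT replicate 1 in 13 of 13 H3K9me2 and 14 of 14 H3K9me3 regions, in RPM of the library total. In the other part WT replicate 1 was higher in 7 of 16 and 18 of 19. KO replicate 2 was above KO replicate 1 in 14 of 14 satellite and 0 of 19 other H3K9me3 regions, but in 3 of 13 and 8 of 16 H3K9me2 regions.

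For H3K9me3, then, the WT replicate 2 library and the KO replicate 2 library were both high on satellite and low on the other part. The satellite part took 0.203% and 0.260% of the KO totals and 0.0919% and 0.174% of the WT totals, and the other part took 0.520% and 0.444% against 0.226% and 0.175%. The satellite spread between the WT libraries was thus nearly as large as the difference between genotypes. Regions of 1 part share sequence and library, so their like order is not independent evidence.

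The fold changes of the parts diverged between the marks after TMM scaling. The median log2 fold change was 0.40 in the satellite part and 0.18 in the other part for H3K9me2, and -0.22 and 0.36 for H3K9me3. With library totals alone all 4 medians were positive, at 1.02, 0.85, 0.78 and 1.37. The difference between the parts was not tested.

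**Figure D4:**
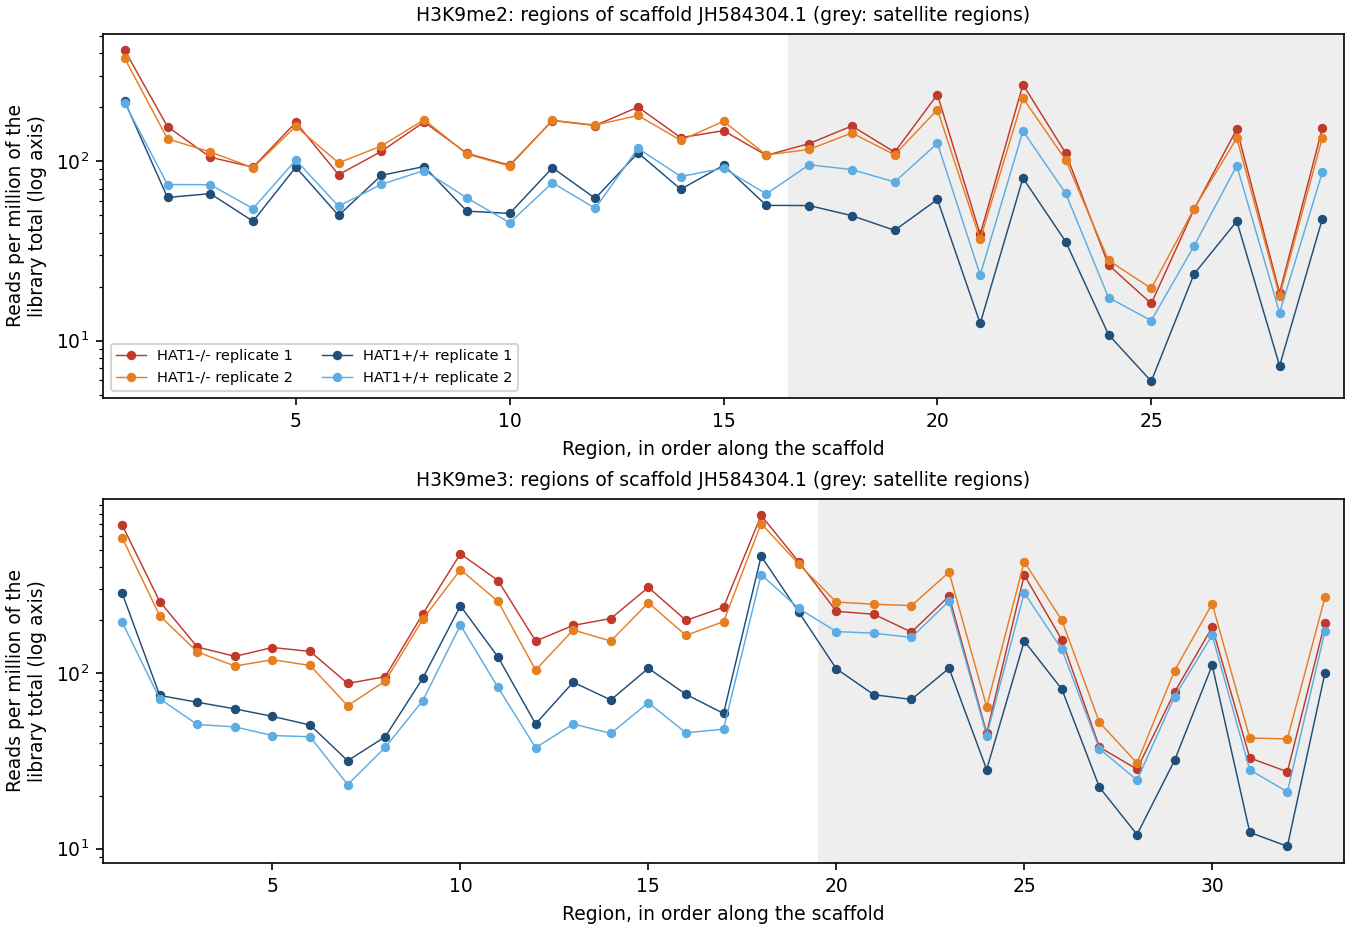
RPM of the library total (log axis) at the regions of JH584304.1 in order along the scaffold, for H3K9me2 (29 regions) and H3K9me3 (33 regions), 1 line per library, with the satellite part in grey. The KO lines lie above the WT lines throughout, and in the grey part the WT replicate 2 line runs above WT replicate 1 at all 13 and 14 regions.

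The scaffold regions with the most reads lay in both parts of JH584304.1. JH584304.1:219-2595 had 2295 and 2031 H3K9me2 reads in KO against 1816 and 1370 in WT (log2 fold change 0.21 ± 0.21, SE). The H3K9me3 region there, JH584304.1:217-2857, had 2918 and 2722 in KO against 1655 and 1109 in WT (0.40 ± 0.31, SE). In both the KO counts were above the WT counts. Further along, still before the satellite part, H3K9me2 at JH584304.1:62380-63243 had 1107 and 976 in KO against 938 and 767 in WT (0.06 ± 0.21, SE). JH584304.1:62472-65009 had 3313 and 3272 H3K9me3 reads in KO against 2683 and 2068 in WT (-0.16 ± 0.30, SE), and JH584304.1:65252-66568 had 1799 and 1925 against 1292 and 1326 (-0.12 ± 0.31, SE). In the satellite part, H3K9me2 at JH584304.1:79094-79569 had 1479 and 1219 in KO against 679 and 959 in WT (0.48 ± 0.21, SE), and JH584304.1:72977-73347, the region with the smallest p among those higher and not called, had 1300 and 1052 against 516 and 818 (0.58 ± 0.21, SE, FDR = 0.154, edgeR). None of these passed the FDR in edgeR with TMM factors.

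The RefSeq genes at regions of JH584304.1 are listed there as pseudogenes or as a non-coding RNA. Pisd-ps3 had 3 regions of each mark, with 2331 and 2290 H3K9me2 reads in KO against 1729 and 1143 in WT, and 3119 and 2822 H3K9me3 reads against 1399 and 919. The transcribed pseudogene LOC100861749, which spans most of the non-satellite part, had 7 H3K9me2 regions with 4622 and 4669 reads in KO against 4081 and 3326 in WT, and 12 H3K9me3 regions with 9620 and 8793 against 5698 and 4114. The KO counts were higher than the WT counts in each.

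Related pseudogenes lie at the starts of other chromosomes. Pisd-ps1 on chromosome 11 had 177 and 162 H3K9me2 reads in KO against 111 and 108 in WT, and in 2 regions 305 and 263 H3K9me3 reads against 148 and 79. Pisd-ps2 on chromosome 17 had 329 and 334 H3K9me2 reads against 235 and 219, and 391 and 365 H3K9me3 reads against 192 and 105. Their regions had TMM-scaled log2 fold changes of 0.40 and 0.31 for H3K9me2, from 0.62 to 0.90 for H3K9me3 at Pisd-ps1 and of 0.71 at Pisd-ps2, and none was called by edgeR with TMM factors. Reads of these copies and of Pisd-ps3 may not be told apart.

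The largest regions of the chromosome 11 block were H3K9me2 chr11:3184317-3185635 in Sfi1, with 1462 and 1359 reads in KO against 1292 and 896 in WT (log2 fold change 0.14 ± 0.21, SE), and H3K9me3 chr11:3192910-3194194 over Sfi1 and Drg1, with 2748 and 2870 against 2485 and 2194 (-0.37 ± 0.30, SE). The KO counts were the higher ones in both, and neither passed the FDR in edgeR with TMM factors. Within the block, Sfi1 held 12 H3K9me2 regions with 4550 and 4433 reads in KO against 3936 and 3049 in WT, and 11 H3K9me3 regions with 6495 and 6126 against 4727 and 3746. Drg1 held 4 and 3 regions, with 2841 and 2869 H3K9me2 reads against 2689 and 2241, and 4419 and 4709 H3K9me3 reads against 3800 and 3405. The KO counts were higher at both genes, while 0 of these regions passed the FDR in edgeR with TMM factors. Of the 18 regions of each mark in the block, 0 passed an unadjusted p of 0.05 in edgeR with TMM factors in either direction for either mark, where 2.12% of the H3K9me2 and 0.985% of the H3K9me3 table passed higher and 7.21% and 8.16% lower, and 6 were called higher for each mark with library totals alone, where 5.5% of the H3K9me2 and 0.785% of the H3K9me3 table were.

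In the whole centromere-proximal class, this block included, 35 of 101 H3K9me2 and 140 of 479 H3K9me3 regions overlapped a gene, and 10 and 32 an exon. These were 34.7% and 29.2% for genes, against 39.3% and 28.8% of other regions, and 9.90% and 6.68% for exons, against 7.63% and 5.73%. Outside the block, genes with several H3K9me3 regions included Zfp804b, a zinc-finger gene (11 regions, 180 and 237 reads in KO against 159 and 124 in WT). Xkr4 had 6 regions (106 and 198 against 86 and 74). Rp1, a photoreceptor microtubule protein, had 6 regions with 119 and 140 reads against 79 and 58, and Gria4, an AMPA-type glutamate receptor subunit, had 6 regions with 101 and 89 against 70 and 45.

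Gene families differed in their number of regions. Zinc-finger genes had 15 H3K9me3 regions in the class (3.13%, against 0.840% of other regions), 11 of them in Zfp804b, and 0 H3K9me2 regions (against 0.818%). Vomeronasal receptor genes had 3 H3K9me2 (2.97%, against 0.491%) and 8 H3K9me3 regions (1.67%, against 0.625%), and olfactory receptor genes 0 (against 0.545%) and 1 (0.209%, against 0.740%). None of these was called by edgeR with TMM factors. The median log2 fold changes were -0.06 for the zinc-finger and -1.57 for the vomeronasal H3K9me3 regions. WT replicate 2 was the highest library at 5 of the 6 vomeronasal genes with a H3K9me3 region, with 26 reads at Vmn2r31 against 7, 10 and 6 in the others, and 24 at Vmn2r36 against 0 in each of the others. At Vmn2r32 on chromosome 7 the H3K9me2 region had 6 and 15 reads in KO against 5 and 44 in WT, again with the WT replicate 2 library alone high.

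Among the other scaffolds, genes of the Sp100 and Sp110 nuclear body families lie on the chromosome 1 pieces. Csprs, a component of the Sp100-rs repeat, had 3 H3K9me2 regions with 164 and 164 reads in KO against 156 and 158 in WT, and 5 H3K9me3 regions with 374 and 360 against 311 and 323. The chromosome 1 scaffolds together took 0.0656% and 0.0650% of the KO totals and 0.0444% and 0.0427% of the WT totals for H3K9me3, and had a median TMM-scaled log2 fold change of -0.37.

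On GL456216.1 the H3K9me3 region at Dhrsx, a short-chain dehydrogenase gene, had 133 and 164 reads in KO against 260 and 179 in WT. Its log2 fold change was -1.21 ± 0.40 (SE, FDR = 0.130, edgeR), and -0.18 with library totals. Tmlhe on GL456233.1, an enzyme of carnitine synthesis, had 4 H3K9me3 regions with 74 and 75 reads in KO against 17 and 34 in WT, and none was called by edgeR with TMM factors.

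Whether the marks responded alike was read at regions that overlapped one to one. There were 61 centromere-proximal and 41 scaffold pairs of 775. The sign of the TMM-scaled fold change was the same in 35 centromere-proximal pairs, 17 higher and 18 lower in KO for both marks. In 24 pairs H3K9me2 was above 0 and H3K9me3 below, and in 2 the reverse. Of the 673 other pairs, 122 were higher and 310 lower for both, 177 were above 0 for H3K9me2 alone and 64 for H3K9me3 alone. Of the scaffold pairs, 9 were higher and 8 lower for both, 23 were above 0 for H3K9me2 alone and 1 for H3K9me3 alone. These signs depend on the scaling.

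No pair passed a mark by genotype interaction in edgeR over the 775 pairs without a block, either with H3K9me3 higher (0%) or lower (0%) than H3K9me2. At an unadjusted p under 0.05, 0 centromere-proximal and 1 scaffold pair passed, of 13 among the 775, and the smallest FDR was 0.993. The fit without a block did not pair the marks of the same cells. With a block for each genotype and replicate number, which pairs the marks by title, 1 of the 775 pairs was called, which was no member. With that block 52 pairs passed an unadjusted p of 0.05 in edgeR, of which 2 were centromere-proximal and 2 scaffold pairs. DESeq2 was not run on the interaction. A difference between the marks was therefore not detected with 2 libraries per group, which does not show that they changed alike.

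**Figure D5:**
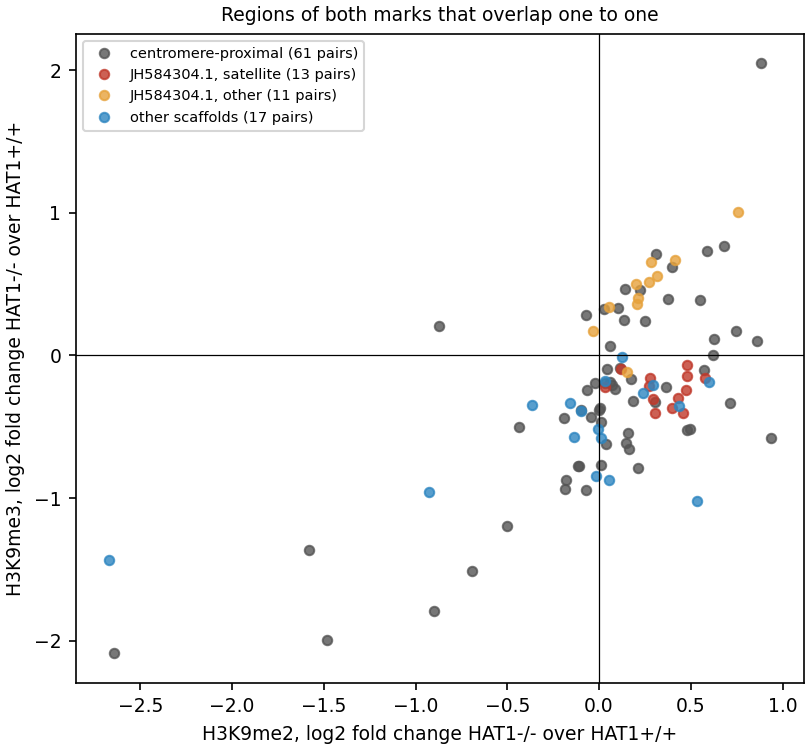
TMM-scaled log2 fold change of KO over WT for H3K9me3 (vertical) against H3K9me2 (horizontal) at the 102 member pairs that overlap one to one, coloured by class. The satellite pairs of JH584304.1 lie right of 0 and below 0, whereas most of its other pairs lie above 0 on both axes.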

How the data were processed

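H3K9me2 and H3K9me3 ChIP-seq libraries of 2 HAT1+/+ and 2 HAT1-/- immortalized MEF populations each (8 libraries) were analysed, with groups and replicate numbers taken from the titles. Per the study's methods and the submitters' processing notes, the authors aligned paired-end reads to mm10 with BWA 0.7.12, called peaks with MACS2 2.1.0 and named DiffBind. The handling of duplicate reads and of reads with several places is not given in the sources used here. The deposited tables hold read counts per region and library, which are not normalized, and RPM values made by the authors, equal to the count plus 1 over a library total to within 0.00049%. The totals were taken from that relation. Fold enrichment, in 8 per-sample columns, and the authors' columns of fold change, p and q, which hold their own comparison, were not used.

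Repeats of the same line were removed, 62 of 2045 for H3K9me2 and 314 of 14829 for H3K9me3, and of these 2 and 3 were centromere-proximal and 0 on scaffolds. Deposited starts were read as counted from 0, and coordinates are printed counted from 1. Members and lists were chosen with earlier results of these data known. Counts were tested with edgeR 4.0.16 (glmQLFit and glmQLFTest, R 4.3.3) over all regions of a table, with library totals and TMM factors, no filter and an FDR of 0.05. The TMM factors were 0.715 to 1.30 (H3K9me2) and 0.672 to 1.48 (H3K9me3). DESeq2 1.42.0 was an alternative, as were library totals alone, counts in regions as library size, low-count filters, a pseudocount of 0.1, limits of 5 and 12 Mb, 2 or more summits, a replicate block, and each library left out. Without JH584304.1 was added after the data were seen. The edgeR test was also run on counts simulated with known changes, drawn from the means and dispersion of the real fits. Library values were compared by exact two-sided permutation (scipy 1.17.1), and overlaps were found with bedtools 2.31.1.

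Genes came from GENCODE M21, and sequences, scaffold genes and chromosome assignments from RefSeq GRCm38. Of 16 scaffolds, 12 were matched to a contig by exons at the same start, end and strand in GENCODE and RefSeq. For GL456210.1 and JH584295.1 that was 1 exon, of 11 and of 7. Sequence features cover the matched scaffolds alone, which leaves 45 of 48 H3K9me2 and 104 of 114 H3K9me3 scaffold regions. Regions named were, per mark and class, the 3 with the most reads, up to 3 called in each direction whose genotypes did not overlap, and otherwise the one with the smallest p, with every scaffold and, per chromosome, its fullest 1 Mb bin. Genes, gene families and the motif were named beside these after their values were seen.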

Additional observations from a re-analysis of the deposited data

How the results depend on the processing

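Of 168 alternative values over 20 results, 122 kept direction and side of the threshold. With library totals alone the called centromere-proximal regions became 10 (H3K9me2) and 7 (H3K9me3), all higher, the scaffold calls 27 and 14, and the median log2 differences 0.70 and 0.99 (H3K9me2) and 0.85 and 0.69 (H3K9me3). Counts in regions as library size gave H3K9me3 medians of 0.24 and 0.044, 0 scaffold calls for H3K9me2, 1 scaffold and 1 centromere-proximal call for H3K9me3, and, as the denominator of the class shares, centromere-proximal differences of -0.113 and -0.369 percentage points. DESeq2 called 1 centromere-proximal and 0 scaffold H3K9me2 regions and 1 scaffold H3K9me3 region. An unadjusted p under 0.05 gave 8 and 62 centromere-proximal and 6 and 10 scaffold regions.

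The median log2 differences, KO minus WT, were 0.050 and -0.11 (centromere-proximal) and 0.32 and -0.31 (scaffold) for H3K9me2 and H3K9me3. A limit of 5 Mb left 1 call in each mark and centromere-proximal medians of 0.32 and -0.25, 12 Mb gave 8 H3K9me3 calls and medians of -0.15 and -0.11, and edgeR's low-count filter medians of -0.075 and -0.21. With 2 or more summits they were 0.14 and -0.38. Without JH584304.1 (added after the data were seen), scaffold H3K9me2 had 0 calls, a median difference of -0.043 and a difference from other regions of -0.20. With 2 or more summits, 95.3% and 100% of H3K9me2 regions overlapped H3K9me3. The cause of these changes was not tested.

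Leaving out each library gave, for calls, 0 to 3 and 0 to 20 (centromere-proximal) and 0 to 1 and 0 to 9 (scaffold) for H3K9me2 and H3K9me3; 20 and 9 came without WT replicate 1, and 0 without either KO library in both classes and marks. Median differences, in the same order of marks, ran from -0.045 to 0.14 and -0.16 to -0.058 (centromere-proximal) and 0.19 to 0.46 and -0.42 to -0.21 (scaffold), the ends coming without a WT library, or a KO library for scaffold H3K9me3, and H3K9me2 differences from other regions from -0.33 to 0.12 (centromere-proximal) and -0.046 to 0.38 (scaffold). With a library left out, the genotype with 1 library was assumed to vary like the other.

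Over all regions of a table the deviations of same-numbered libraries were uncorrelated (0.0300 and 0.00423), although the H3K9me3 replicate 2 libraries moved together on JH584304.1, so the number was not taken as a pairing. The replicate block left 0 centromere-proximal H3K9me2 and 1 H3K9me3 call, and changed no other count of calls by over 1.5 times. With 2 libraries per group, low-count regions limit what can be seen.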
